A study of Mus musculus with 6 samples.

Results

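ATAC-seq, in which a transposase cuts open DNA and inserts sequencing adaptors, was read here at the strong intergenic peaks of mouse T follicular helper (Tfh) cells, the CD4 T cells that help B cells in lymphoid follicles. A peak was taken as strong and intergenic where the deposited gene section read Intergenic and where its CPM, a read count scaled to the reads that the library held in all listed peaks, averaged at least 15 over the 6 libraries. That rule chose 1419 of 282898 listed peaks, or 1419 of the 134835 intergenic ones. A threshold of 10 CPM would have chosen 2230 and a threshold of 20 CPM 923. Because the peaks were selected on their mean level, that level is given below as a description and supports nothing.

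The libraries were made from sorted Tfh21, Tfh214 and Tfh4 cells of untreated C57BL/6 mice of the genotypes Stat6 KO and Stat6 WT, with 1 library for each genotype and population. The sorting of each population drew on 10 mice of a genotype, and 50000 cells entered each tagmentation, so a library stands for a pool of mice. The sources used here give neither what sets the 3 populations apart nor which part of Stat6 is missing in KO. Stat6 encodes a transcription factor activated by interleukin-4 (IL-4) receptor signalling.

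Open intergenic sites in lymphocytes include enhancers, which bind transcription factors and act on promoters over long distances, as well as insulators and start sites that an annotation does not list. T cell receptor signalling opens or raises many such sites through factors of the AP-1, NFAT and NR4A families. An ATAC-seq peak shows that a site was open, and it does not say which gene the site acts on. Naming the nearest start site is therefore a label of position. In these bulk libraries a site open in fewer cells and a site less open in each cell cannot be told apart.

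Recovered reads in peaks numbered 1051120, 798555 and 1238585 in KO Tfh21, KO Tfh214 and KO Tfh4, and 1122701, 1271755 and 1373218 in WT Tfh21, WT Tfh214 and WT Tfh4. A strong intergenic peak held a median of 26.2 reads per library, so counting error was wide at most single peaks. Markers of cell types were summed over the peaks that the file assigns to a gene, which leaves out every intergenic peak. The 13 T cell and Tfh marker genes all had such peaks, with summed levels of 559 to 804 CPM in KO libraries and 604 to 667 CPM in WT libraries. B cell markers summed to 109 to 133 CPM in KO and 126 to 164 CPM in WT with 6 of 8 genes having a peak, and Cd79a and Ms4a1 had none. Myeloid markers summed to 110 to 120 CPM in KO and 113 to 127 CPM in WT, with 7 of 8 listed symbols having a peak. The symbol without one, Emr1, is an older name of Adgre1, which was listed too and had a peak. Cytotoxic and NK cell markers summed to 13.8 to 27.5 CPM in KO and 17.8 to 28.4 CPM in WT with 4 of 6 genes having a peak, and Cd8a and Ncr1 had none. The part of other cell types in the results was not tested.

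No genome of the deposited build, mm9, was used, so bases of the peaks themselves are not shown. Start regions of 4 genes next to peaks described below are printed instead. The deposited list has peaks at the start sites of Lpin1, Dusp6 and Nr4a1. For Tox2, the distance from peak to listed start site is near the spacing of a pair of RefSeq starts. The upstream start of that pair is printed. Each runs from 250 bases before to 50 bases after a start in RefSeq (GRCm38.p6), 5′ to 3′ on the gene's strand. The Lpin1 region is at chromosome 12, 16610917 to 16611216 (minus strand), the Dusp6 region at chromosome 10, 99262981 to 99263280 (plus strand), the Nr4a1 region at chromosome 15, 101266596 to 101266895 (plus strand) and the upstream Tox2 region at chromosome 2, 163203033 to 163203332 (plus strand). Capitals mark matches to TTCNNNNGAA, the spacing of the GAS-like element that STAT6 prefers.
Lpin1: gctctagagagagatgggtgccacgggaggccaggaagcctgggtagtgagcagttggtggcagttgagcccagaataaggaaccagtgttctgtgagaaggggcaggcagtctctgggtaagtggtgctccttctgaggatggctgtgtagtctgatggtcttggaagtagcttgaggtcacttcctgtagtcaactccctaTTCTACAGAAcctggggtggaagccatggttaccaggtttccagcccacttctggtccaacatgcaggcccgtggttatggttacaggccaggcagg
Dusp6: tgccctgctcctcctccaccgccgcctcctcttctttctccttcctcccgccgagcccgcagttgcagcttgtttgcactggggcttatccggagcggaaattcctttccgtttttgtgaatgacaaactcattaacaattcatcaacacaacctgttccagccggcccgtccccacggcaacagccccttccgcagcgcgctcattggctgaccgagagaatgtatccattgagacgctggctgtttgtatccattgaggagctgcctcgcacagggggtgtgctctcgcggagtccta
Nr4a1: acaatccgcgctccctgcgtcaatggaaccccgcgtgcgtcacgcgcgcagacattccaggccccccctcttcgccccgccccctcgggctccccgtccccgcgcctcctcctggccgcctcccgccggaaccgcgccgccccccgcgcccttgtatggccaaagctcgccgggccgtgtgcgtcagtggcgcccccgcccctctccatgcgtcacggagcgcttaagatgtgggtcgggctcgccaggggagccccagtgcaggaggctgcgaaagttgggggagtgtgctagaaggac
Tox2, upstream start: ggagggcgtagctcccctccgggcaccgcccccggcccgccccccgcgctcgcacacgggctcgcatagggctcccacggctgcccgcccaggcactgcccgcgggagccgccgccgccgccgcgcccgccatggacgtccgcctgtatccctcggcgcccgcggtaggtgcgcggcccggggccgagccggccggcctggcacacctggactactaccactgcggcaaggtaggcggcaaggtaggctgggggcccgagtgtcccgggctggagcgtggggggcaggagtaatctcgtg
Only the Lpin1 region among these 4 held TTCNNNNGAA, as TTCTACAGAA. The element occurs in 6.95% of 32851 RefSeq start regions of this length. TTCNNNGAA, the spacing other STAT proteins prefer, occurs in 8.3% of them, and TGANTCA, the AP-1 element, in 7.81%, and neither was found in the 4 regions. These elements read the same on both strands, and TTCNNNNGAA and TTCNNNGAA were counted separately. A match is a description of letters and not a binding site.

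Strong intergenic peaks lay nearer to listed start sites than weaker intergenic peaks did. The median distance from the peak's midpoint was 26.7 kb for the strong ones and 70.5 kb for the weaker ones. A start site lay within 100 kb of 1214 strong peaks (85.6%), against 56.8% of the weaker ones. Distances of at most 2, 10, 50 and 200 kb held 35, 306, 975 and 1329 strong peaks. Of the 1214, 837 (68.9%) lay upstream of the nearest start, and the weaker peaks had nearly the same share upstream, 68.4%. They were also longer, with a median of 658 bases against 432 for weaker intergenic peaks, 609.5 for strong intron peaks and 792 for strong start-site peaks. Length and distance were not tested, since peaks are not replicates and strength itself chose the set.

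**Figure D1:**
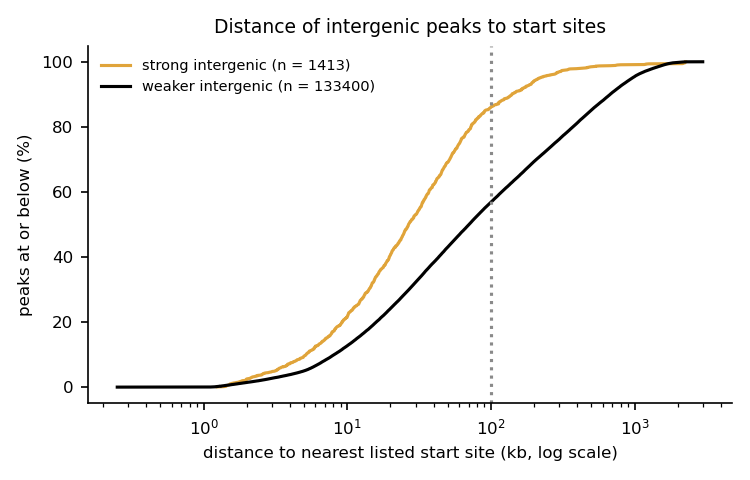
Share of intergenic peaks (y axis, percent at or below) against distance from the peak's midpoint to the nearest listed start site (x axis, kb, log scale), for 1413 strong and 133400 weaker peaks on chromosomes with a listed start. The dotted line marks 100 kb, where the strong curve stands at 85.6% of strong peaks and the weaker curve at 56.8% of weaker peaks.

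The 1214 peaks fell next to 1001 genes. Of these genes, 836 had 1 strong intergenic peak, 131 had 2, 23 had 3, 8 had 4 and 3 had 5. Fasl, which encodes the death ligand FasL of activated T cells, was among those with 5. Its peaks averaged 58.2, 28.4, 23.9, 17.1 and 15.2 CPM and lay 16.2 to 53.8 kb from its start, whose own peak averaged 15.5 CPM. The strongest Fasl peak (chromosome 1, 163696194 to 163697528) had 74.2, 57.6 and 57.3 CPM in KO Tfh21, KO Tfh214 and KO Tfh4 and 60.6, 62.9 and 36.4 CPM in the WT libraries in the same order of populations. The Fasl cluster was thus lowest in WT Tfh4 at that peak, and the KO and WT values overlapped. Irf2bpl, a gene for a zinc-finger protein, and 5830428M24Rik had 5 peaks each as well. With 4 each stood Pkdcc, Dusp6, Klrb1c, Ubl3, Rasgrp1, Ets2, Ier5 and Trim27. Of all 1419 peaks, 188 (13.2%) had another strong intergenic peak within 10 kb and 636 (44.8%) within 100 kb.

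The highest mean level stood 65.0 kb downstream of the start of Zfp958 (chromosome 8, 4677354 to 4678916), a zinc-finger gene, with 164, 150.3 and 137 CPM in the KO libraries and 134, 127 and 116 CPM in the WT libraries, in the order Tfh21, Tfh214 and Tfh4 that is used throughout. Next came a peak 3.23 kb upstream of Nr3c1, the glucocorticoid receptor gene, with 150.3, 144 and 105 CPM in KO and 117, 124 and 105 CPM in WT. Foxj2, G530011O06Rik, 1700073E17Rik, Gpc5, Nlrp4f and Smndc1 were among the other genes next to the 10 strongest peaks, and 1 of the 10 (chromosome 6, 144850435 to 144852001) had no listed start within 100 kb. The means of these 10 ran between 79.7 and 137.9 CPM, against a median of 23.2 CPM over the 1419. At the lower end of the set, the peaks just inside the threshold averaged 15.03 CPM next to Tmem154 and B3galnt2 and 15.04 CPM next to Rapgef2. Just outside it, a peak next to Tac4 averaged 14.98 CPM, and 2 peaks with no listed start within 100 kb, both on chromosome 12, averaged 14.97 and 14.98 CPM.

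About as many of the peaks stood above as below the strongest start-site peak of their nearest gene, in CPM per peak and not per base. Of the 1214, 979 had a nearest gene with a listed start-site peak, and the strongest of these was taken. Of the 979, 514 (52.5%) had a higher mean CPM than that start-site peak, whose median was 23.6 CPM. The intergenic peaks were selected on level and the start-site peaks were not, 611 of which were strong. The share therefore describes the selected pairs only. Across these 979 pairs the level of the strong intergenic peak and that of the start-site peak had a Pearson r of 0.03 and a Spearman rho of 0.01. These values describe pairs from the same 6 libraries, with the intergenic level cut off at the threshold. KO against WT differences on the log2 scale had an r of 0.12 and a rho of 0.15 over 451 pairs in which both peaks were tested.

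For some of the peaks, the distance to the listed start matched a spacing between RefSeq starts of the same gene. Among 837 upstream peaks, 156 had a nearest gene with several starts in the RefSeq table. For 15 of those (9.62%) the distance came within 500 bases of the spacing of any pair of the gene's RefSeq starts. Which RefSeq start is the listed one was not determined. A gene with more starts offers more pairs, and Tox2 had 5 starts. The same held for 181 of 7416 weaker peaks (2.44%). Strong peaks lay nearer to listed starts than weaker ones, and these shares were not matched for distance. Spacing was compared within each build, and no coordinate was carried between builds. The 15 included peaks of Gtdc1 (65.4 kb against a spacing of 65.6 kb), Tox2 (21.8 kb against 22.2 kb), Eef2k (8.18 kb against 8.36 kb) and Pcgf5 (30.4 kb against 30.7 kb). Their section in the deposited file was intergenic. For the nearest of the 15 the tolerance was a large part of the distance, as at Per1 (1.52 kb against 1.2 kb).

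Chromosomes 1 to 19 had between 0.722% (chromosome 18) and 1.49% (chromosome 19) of their intergenic peaks in the strong set. The share was 2.76% on X (21 of 762), 17.9% on Y (10 of 56) and 27.3% on the mitochondrial chromosome (6 of 22). The 21 X peaks summed to 720.2, 614.9 and 577.3 CPM in KO and 535.3, 549.6 and 447.9 CPM in WT, and 15 of 15 tested were higher in KO, against 87.7% of all tested strong intergenic peaks. With each library scaled by its median ratio to the others, 11 of the 15 were higher in KO, against 58.9%. The 10 Y peaks summed to 381.5, 397.0 and 353.6 CPM in KO and 404.4, 299.6 and 334.3 CPM in WT. The mitochondrial ones summed to 140.8, 197.9 and 126.0 CPM in KO and 181.7, 118.7 and 141.3 CPM in WT, with no common direction over the populations.

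Strong intergenic peaks took a larger share of the reads in peaks in the KO library than in the WT library of each population. The share was 4.66% (Wilson 95% interval 4.62 to 4.70) in KO Tfh21, 4.22% (4.18 to 4.27) in KO Tfh214 and 3.76% (3.73 to 3.80) in KO Tfh4. In WT it was 3.79% (3.76 to 3.83) in Tfh21, 3.93% (3.90 to 3.97) in Tfh214 and 3.09% (3.06 to 3.12) in Tfh4. The intervals of KO and WT do not overlap within a population, and they hold counting error alone, because copies made by PCR do not count separate molecules and each group is 1 library. Strong start-site peaks moved the same way, at 31.35%, 30.2% and 25.25% in KO and 26.85%, 26.5% and 22.9% in WT. Weaker intergenic peaks moved the other way, at 26.7%, 28.3% and 31.8% of reads in KO and 30.8%, 31.15% and 33.1% in WT. Genotype and library cannot be told apart in these shares.

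**Figure D2:**
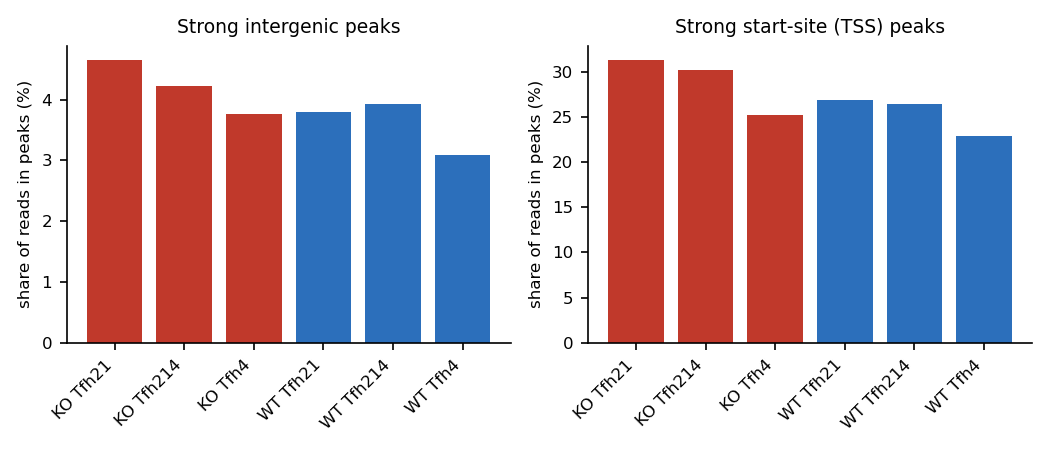
Share of each library's reads in peaks (y axis, percent) held by the 1419 strong intergenic peaks (left) and by the 7371 strong start-site peaks (right), with KO libraries in red left of WT libraries in blue, 1 bar a library. Both panels stand highest in KO Tfh21 (4.66% and 31.35%) and lowest in WT Tfh4 (3.09% and 22.9%).

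At single peaks the same order of libraries recurred. KO Tfh21 was the highest library at 708 peaks (49.9%), against 46.9% of other strong peaks, and WT Tfh4 was the lowest at 821 (57.9%), against 52.3%. Median-of-ratios scaling divides each library by the median ratio of its peaks to their geometric mean over libraries, which takes out such a shift. After it, KO Tfh21 was highest at 233 peaks and WT Tfh4 lowest at 366. The highest library stood at a median of 1.736 times the lowest in CPM and at least 2 times at 343 peaks (24.2%), and at 166 (11.7%) after scaling. For comparison, 28.6% of strong intron peaks and 10.3% of strong start-site peaks reached 2 times in CPM. Widest were a peak with no listed start within 100 kb (chromosome 2, 8886597 to 8887151), at 20.9, 20.04 and 31.5 CPM in KO and 8.02, 16.5 and 16.0 CPM in WT, and a peak 76.3 kb downstream of Anapc4, a subunit gene of the anaphase-promoting complex, at 25.7, 25.05 and 23.4 CPM in KO and 18.7, 20.4 and 6.55 CPM in WT. A single low WT library set each ratio, WT Tfh21 at the peak on chromosome 2 and WT Tfh4 at Anapc4. Narrowest was a peak 18.9 kb upstream of Abcc12, a transporter gene, at 23.8, 21.3 and 21.8 CPM in KO and 22.3, 22.8 and 23.3 CPM in WT. Variance over the 6 libraries was a median of 1.23 times the counting variance in CPM and 0.731 times after scaling. Strong intron and strong start-site peaks had medians of 0.733 and 0.625 after scaling. With 6 libraries, counting alone would put such a median somewhat below the counting variance. Whether it would put it as low as the scaled values was not tested, so these values are a description.

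KO was compared with WT over the 3 populations with an additive limma model on log2(CPM + 1), fitted to the 8986 listed peaks that averaged 20 reads or more per library, 1126 of them strong intergenic. A fold change on this scale understates the change of low peaks. Of the 1126, 8 were called higher in KO at a Benjamini-Hochberg adjusted p under 0.05 (0.71%), against 0.857% of all tested peaks, and 0 were called lower. The median log2 difference was 0.22 over the strong intergenic peaks and 0.19 over all tested peaks, and 988 (87.7%) were above 0, against 85.9% of all. The share called was thus near the background, and the shift in KO was one of strong peaks in general. With median-of-ratios scaling the medians were 0.03 and 0.004 and 1 was called. Calls by limma numbered 0 without the variance trend and 0 without KO Tfh21 or without WT Tfh21, 3 without KO Tfh4 or without WT Tfh4, 65 without KO Tfh214 and 59 without WT Tfh214, and edgeR and DESeq2 called 0. The shares of all tested peaks called under these alternatives are not reported here, so these counts are not set against a background. The limma test sets an effect against the residual spread over populations with 2 residual degrees of freedom. Its p-values do not measure the spread between animals, and genotype, pool of mice and library preparation cannot be told apart.

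The called peak with the largest difference lay 57.3 kb downstream of the start of Lpin1, a gene for a phosphatidate phosphatase of lipid synthesis (chromosome 12, 16538894 to 16539728). It had 40.9, 55.1 and 38.75 CPM in KO and 23.2, 23.6 and 21.85 CPM in WT, on 43, 44 and 48 reads in KO and 26, 30 and 30 reads in WT. All 3 KO libraries stood above all 3 WT libraries, and the WT values were nearly alike. The log2 difference was 0.93 ± 0.17 (SE; limma gave an adjusted p = 0.00219). Scaled by median of ratios it was 0.745 (adjusted p = 0.0464 by limma). KO to WT ratios of CPM were 1.77 in Tfh21 (exact binomial 95% interval 1.06 to 2.99), 2.34 in Tfh214 (1.44 to 3.85) and 1.77 in Tfh4 (1.10 to 2.90). It was the only one of the 1419 peaks (0.0705%) whose interval lay above 1 in all 3 populations in CPM, against 0.0295% of all strong peaks. After scaling no peak did. Its peak was chosen for these values, so the intervals are a description, and limma no longer called it without KO Tfh21 or without WT Tfh21, where the log2 difference was 0.995.

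Among the other Lpin1 peaks averaging 4 CPM or more, the start site went the other way. The start-site peak (chromosome 12, 16596392 to 16596670) had 10.5, 8.77 and 8.07 CPM in KO and 13.4, 11.0 and 8.74 CPM in WT, so it was lower in KO in each population on 7 to 15 reads. A 5′ UTR exon peak 5.31 kb from the start had 12.4, 6.26 and 18.6 CPM in KO and 1.78, 3.15 and 4.37 CPM in WT, on 13, 5 and 23 reads in KO and 2, 4 and 6 in WT. Lpin1 had a further strong intergenic peak 1.86 kb upstream, with 20.9, 15.03 and 23.4 CPM in KO and 15.1, 9.44 and 14.6 CPM in WT, which was under the minimum of reads for the test. An intron peak 20.8 kb from the start had 5.71, 7.51 and 6.46 CPM in KO and 5.34, 3.93 and 4.37 CPM in WT, on 5 to 8 reads a library. In CPM, both intergenic peaks, the exon peak and the intron peak were thus higher in KO in every population, and the start-site peak was lower. The intron peak held 6 reads in both Tfh21 libraries, so its direction there came from the scaling to library size. Of all strong intergenic peaks, 38.5% were higher in KO in every population in CPM and 14.2% after median-of-ratios scaling. Whether the Lpin1 region printed above lies at that start-site peak was not checked between builds.

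Foxj2, a forkhead transcription factor gene, had a called peak 8.98 kb upstream of its start (chromosome 6, 122760426 to 122762018). It had 152, 133 and 126 CPM in KO and 105, 118 and 84.5 CPM in WT, so every KO library stood above every WT library. The log2 difference was 0.42 ± 0.09 (SE, limma adjusted p = 0.0151) and 0.24 after scaling (adjusted p = 0.999). Its start-site peak stood 0.10 lower in KO on the log2 scale.

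Dusp6, which encodes a phosphatase that inactivates ERK and is induced by T cell receptor signalling, had 4 strong intergenic peaks, all upstream. The called one lay 21.2 kb away (chromosome 10, 98703989 to 98705308), with 80.9, 76.4 and 68.6 CPM in KO and 56.1, 70.0 and 40.05 CPM in WT. Its lowest KO library was KO Tfh4, just under WT Tfh214, so the groups overlapped. The log2 difference was 0.47 ± 0.12 (SE, limma adjusted p = 0.0428) and 0.28 after scaling. The other Dusp6 peaks, 58.5, 51.9 and 1.57 kb upstream, averaged 19.0 ± 3.75 CPM in KO and 16.65 ± 3.70 CPM in WT, 19.8 ± 3.54 CPM in KO and 15.4 ± 3.05 CPM in WT and 24.6 ± 4.24 CPM in KO and 20.15 ± 7.62 CPM in WT, and the 2 of them that were tested were not called. The start-site peak of Dusp6 averaged 43.8 CPM, less than the 65.3 CPM of the called peak.

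The other 5 called peaks had smaller differences than Lpin1. They lay upstream of G530011O06Rik on X (18.7 kb), of C2cd5 (15 kb), which encodes a C2-domain protein, of 4930529L06Rik (95.8 kb) and of Cnn3 (56.4 kb), a calponin gene of the actin cytoskeleton, and downstream of A930005H10Rik (72.3 kb). C2cd5 had 78.0, 76.4 and 66.2 CPM in KO and 51.7, 55.0 and 48.1 CPM in WT, with no overlap. Cnn3 had 61.8, 75.1 and 59.75 CPM in KO and 49.0, 48.75 and 43.7 CPM in WT, again with no overlap. G530011O06Rik had 131, 150.3 and 92.85 CPM in KO and 96.2, 86.5 and 90.3 CPM in WT, where KO Tfh4 fell within the WT range. The log2 differences of these 5 ran between 0.43 and 0.50 and their limma adjusted p between 0.0325 and 0.0487. After scaling they ran between 0.24 and 0.32, and none of the 5 was called.

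**Figure D3:**
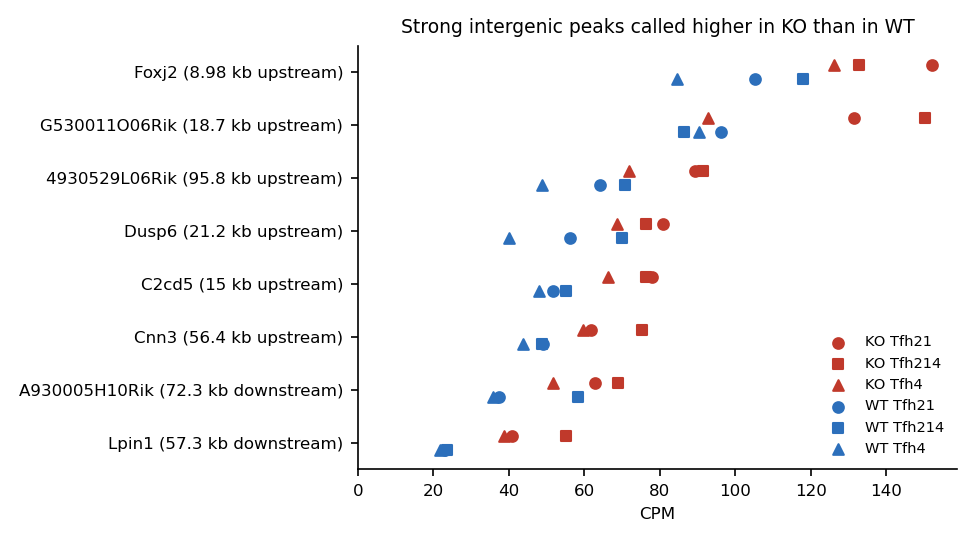
CPM (x axis) of the 8 strong intergenic peaks called higher in KO, 1 row a peak named by its nearest listed start site, with KO libraries in red above WT libraries in blue and the marker giving the population. Lpin1, with 38.75 to 55.1 CPM in KO and 21.85 to 23.6 CPM in WT, is the widest apart for its level.

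No strong intergenic peak was called lower in KO by limma, where 1 had an unadjusted p under 0.05. The peak with the lowest difference (chromosome 4, 56083007 to 56083809) had no listed start within 100 kb, and it stood at 19.98, 10.0 and 16.95 CPM in KO and 19.6, 28.3 and 21.85 CPM in WT. Its log2 difference was -0.58 ± 0.24 (SE, limma adjusted p = 0.166). A peak 18.9 kb upstream of Tmem94 followed with -0.40 ± 0.22 (SE, limma adjusted p = 0.293).

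**Figure D4:**
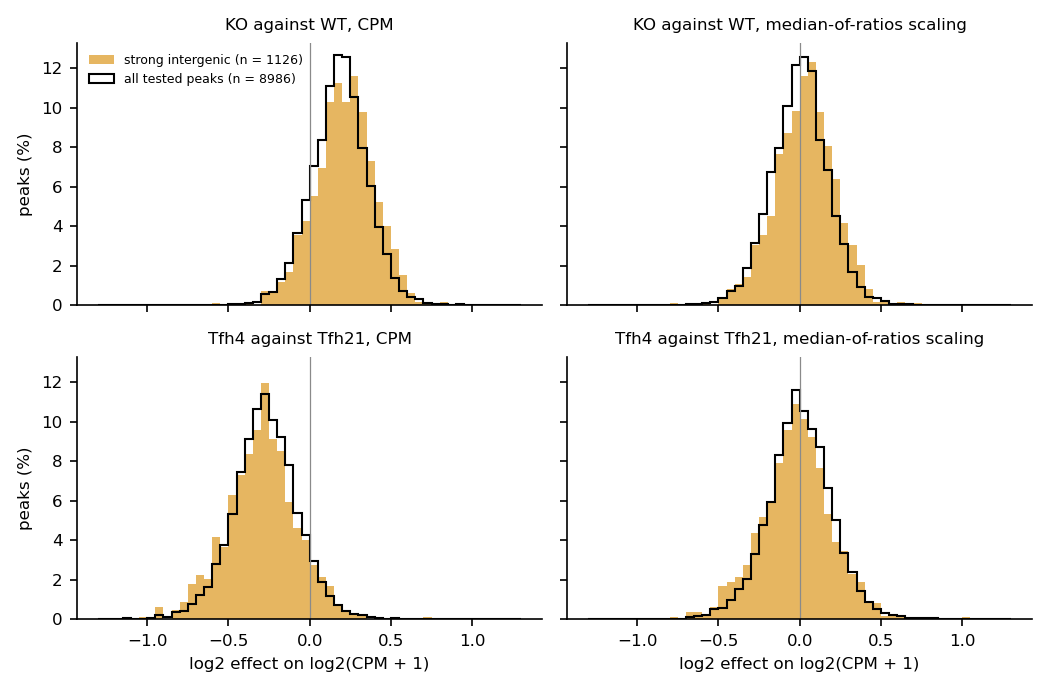
Distribution of log2 differences (x axis) over 1126 tested strong intergenic peaks (filled) and all 8986 tested peaks (line), as percent of peaks (y axis), for KO against WT (top) and Tfh4 against Tfh21 (bottom), in CPM (left) and with median-of-ratios scaling (right). In CPM the medians of the strong intergenic peaks are 0.22 and -0.29, and after scaling 0.03 and -0.015, beside those of all tested peaks.

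Between groups without a test, all 3 KO libraries stood above all 3 WT libraries at 202 strong intergenic peaks (14.2%), against 13.3% of all strong peaks, and below them at 2 (0.141%), against 0.384%. After scaling these numbers were 79 (5.57%) and 48 (3.38%), against 5.14% and 4.67% of all strong peaks. Shares near the background again say nothing particular of intergenic peaks. Exact binomial 95% intervals of the KO to WT ratio lay above 1 in a single population at 228 strong intergenic peaks (16.1%), against 12.5% of all strong peaks. Such intervals lay above 1 in 2 populations at 13 (0.916%), against 0.758%, and in all 3 at 1 (0.0705%), against 0.0295%. They lay below 1 in a single population at 9 (0.634%), against 0.709% of all strong peaks. After scaling, an interval lay above 1 in a single population at 68 peaks (4.79%), against 2.98% of all strong peaks, and below 1 at 41 (2.89%), against 2.89%. These shares were not tested, since peaks are not replicates.

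Within each population, KO and WT were 1 library each, so ratios describe those libraries and carry no test. Over peaks whose higher library had at least 20 reads, 29 of 1335 strong intergenic peaks stood 2-fold or more above WT Tfh21 in KO Tfh21 on the log2(CPM + 1) scale, and 0 were 2-fold lower. The background over all peaks was 1.66% higher and 0.0781% lower. In Tfh214, 7 of 1293 were higher and 6 lower, against a background of 0.487% and 0.696%. In Tfh4, 41 of 1312 were higher and 2 lower, against 2.14% and 0.717%. With scaling, 3 were higher and 0 lower in Tfh21 (0.225% and 0%), against a background of 0.43% and 0.205%. In Tfh214 2 were higher and 19 lower with scaling (0.155% and 1.47%), against 0.0995% and 1.14%, and in Tfh4 13 were higher and 9 lower (0.991% and 0.686%), against 0.978% and 1.09%.

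The largest ratios were read from few counts. In Tfh21 the peak next to Kif3c, a kinesin motor gene, held 26 reads in KO and 11 in WT, a ratio of CPM of 2.52 (exact binomial 95% interval 1.21 to 5.66). In Tfh214 a peak next to Gltscr1l stood at 2.39 (1.16 to 5.08), and one 9.99 kb upstream of Tnfrsf19, a TNF receptor family gene, at 2.23 (1.10 to 4.65). In Tfh4 the Anapc4 peak stood at 3.57 (1.65 to 8.58) and a peak 72.8 kb upstream of Plscr4, a scramblase family gene, at 3.42 (1.74 to 7.20), on 9 and 12 reads in WT Tfh4. These were the ends of the range by choice, and each stood nearer to 1 in at least 1 other population. Kif3c stood at 1.04 in Tfh214, Gltscr1l at 0.882 in Tfh21, Tnfrsf19 at 0.998 in Tfh4, Anapc4 at 1.23 in Tfh214 and Plscr4 at 0.941 in Tfh214. Anapc4 was higher in KO in every population in CPM.

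On the lower side, a peak 34.2 kb upstream of Ets1, a T cell transcription factor gene, stood at 0.439 (0.174 to 0.985) of WT in Tfh214, on 8 reads in KO and 29 in WT. It stood at 1.35 (0.651 to 2.86) in Tfh21 and 1.57 (0.806 to 3.10) in Tfh4. Trim27 had a peak at 0.379 (0.112 to 1.03) in Tfh214, on 5 and 21 reads. In Tfh4 a peak 1.52 kb upstream of Per1, a circadian clock gene, stood at 0.424 (0.205 to 0.824), and one next to Apobec3, an antiviral cytidine deaminase gene, at 0.459 (0.213 to 0.927). Per1 stood at 1.31 in Tfh21 and 1.11 in Tfh214, and Apobec3 at 1.5 and 1.37. The directions at Ets1, Per1 and Apobec3 thus did not hold over the 3 populations. Ratios of the Trim27 peak in the other populations are not reported here.

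Tfh4 libraries were lower than Tfh21 libraries at strong intergenic peaks. In the additive model 20 of 1126 were called lower in Tfh4 (1.78%), against 1.31% of all tested peaks, and 0 were called higher. The median log2 difference was -0.29, against -0.27 over all tested peaks, and after scaling it was -0.015 and 0 were called. The comparison rests on 2 libraries a population. Calls numbered 0 without KO Tfh21 or without WT Tfh21, 44 without KO Tfh4, 87 without KO Tfh214 and 89 without WT Tfh214, and 0 with edgeR, with DESeq2 or without the variance trend.

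Tox2 led the called peaks that have a listed start within 100 kb. It encodes an HMG-box transcription factor of Tfh cells, and its peak (chromosome 2, 163028718 to 163030150) lies 21.8 kb upstream of the listed start. That distance is near the spacing of the pair of RefSeq starts whose upstream one is printed above. The Tox2 peak had 84.7, 81.4 and 53.3 CPM in KO and 76.6, 67.6 and 46.6 CPM in WT, so the Tfh4 library was the lowest of each genotype. The difference of Tfh4 from Tfh21 was -0.68 ± 0.14 on the log2 scale (SE, limma adjusted p = 0.0109), and -0.40 after scaling. KO against WT it was 0.20 ± 0.11 (adjusted p = 0.295).

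Tnfaip3, which encodes the NF-κB inhibitor A20, had a called peak 47.1 kb upstream (chromosome 10, 18781876 to 18782716). It had 80.9, 82.65 and 54.9 CPM in KO and 61.5, 60.55 and 40.05 CPM in WT, again with Tfh4 lowest in each genotype. The difference was -0.58 ± 0.14 (SE, limma adjusted p = 0.0333). Nr4a1, an orphan nuclear receptor gene induced by T cell receptor signalling, had 3 strong intergenic peaks upstream, of which the one 12.8 kb away was called. That peak had 31.4, 22.5 and 16.95 CPM in KO and 29.4, 20.4 and 13.8 CPM in WT, falling in the order Tfh21, Tfh214 and Tfh4 in both genotypes, with a difference of -0.94 ± 0.26 (SE, limma adjusted p = 0.0451). The Nr4a1 peaks 20.4 and 8.29 kb upstream differed by -0.29 and -0.25 with adjusted p of 0.305 and 0.490 by limma. The difference between the 3 was not tested.

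Among the other called peaks were those next to Cfap97, a cilia gene, Sirt4, a mitochondrial sirtuin gene, Psma3, a proteasome subunit gene, Pcgf5, a Polycomb gene, Smchd1, a chromatin protein gene of X inactivation, and Elovl5, a fatty acid elongase gene. Cfap97 had 63.7, 72.6 and 39.6 CPM in KO and 60.6, 50.3 and 34.95 CPM in WT. Pcgf5 had 46.6, 30.05 and 31.5 CPM in KO and 33.0, 33.0 and 14.6 CPM in WT, where the WT Tfh4 library was by far the lowest. Over the 20 called peaks the log2 difference ran between -1.03 and -0.47. The lowest was at a peak with no listed start within 100 kb (chromosome 3, 109535113 to 109535668), with 29.5, 31.3 and 16.15 CPM in KO and 28.5, 25.2 and 11.65 CPM in WT.

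Tfh4 against Tfh214 gave 25 peaks called lower (2.22%), against 1.98% of all tested peaks, and 0 called higher. It shares the Tfh4 libraries with the comparison above, so the values are set side by side and their agreement is no result. The median was -0.26, against -0.24 over all tested peaks (-0.03 after scaling, with 0 called). Calls numbered 0 without KO Tfh21 or without WT Tfh21, 7 without WT Tfh214, 15 without WT Tfh4, 44 without KO Tfh4 and 52 without KO Tfh214, and 0 with edgeR, with DESeq2 or without the variance trend. Repin1, a zinc-finger gene, had a peak 8.15 kb downstream at 25.7, 38.8 and 20.2 CPM in KO and 28.5, 32.2 and 13.8 CPM in WT, a difference of -1.04 ± 0.24 (SE, limma adjusted p = 0.0217). Tox2 stood at -0.565 and Tnfaip3 at -0.58 in this comparison, with limma adjusted p of 0.0276 and 0.0283. A called peak 195 kb from the nearest listed start, that of Cxcr4 (chromosome 1, 130683572 to 130684122), had 17.1, 38.8 and 17.8 CPM in KO and 17.8, 29.9 and 14.6 CPM in WT. It was highest in the Tfh214 library of each genotype, and its difference was -1.04 ± 0.26 (SE, limma adjusted p = 0.0307).

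Between Tfh214 and Tfh21 no strong intergenic peak was called by limma, against 0% of all tested peaks, and 2 were called without WT Tfh214. At an unadjusted p under 0.05 stood 44 of 1126, and edgeR and DESeq2 called 0, with 23 and 0 at an unadjusted p under 0.05. The median was -0.045, against -0.04 over all tested peaks. The peak on chromosome 1 just described had the largest difference, 0.93 ± 0.26 (SE, limma adjusted p = 1.0). It was followed by a peak 8.30 kb upstream of Eif2a, a translation initiation factor gene, with 18.1, 26.3 and 18.6 CPM in KO and 15.1, 27.5 and 12.4 CPM in WT, where Tfh214 again was highest in each genotype.

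Genes of T cell identity and signalling were read from lists of 259 genes, 245 of which the file lists, and 74 of them had 1 or more strong intergenic peaks, 111 in all. Of 94 tested, 87 stood higher in KO on the log2 scale, against 85.9% of all tested peaks, and 55 did after scaling, against 51.0%. Called higher in KO were 2 (Lpin1 and Dusp6), against 0.857% of all tested peaks, and called lower in Tfh4 than in Tfh21 were 3 (Tox2, Tnfaip3 and Nr4a1), against 1.31%. With so few calls these counts show nothing particular to the lists. The medians, 0.22 for KO against WT and -0.28 for Tfh4 against Tfh21, lay beside 0.19 and -0.27 over all tested peaks. The lists were chosen with earlier results of these data known, and Lpin1, a lipid synthesis gene, was already known to differ when it was listed.

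Transcription factor genes held 35 of the 111 peaks, next to 23 of 69 genes, and 0 of 32 tested were called for KO against WT. Tcf7, which encodes TCF-1, a factor that Tfh cells need, had a peak 31.2 kb upstream with 50.4, 51.3 and 34.7 CPM in KO and 33.0, 33.8 and 26.9 CPM in WT. All KO values stood above all WT values there, with a log2 difference of 0.51 ± 0.15 (SE, limma adjusted p = 0.0689). The peak 90.7 kb upstream of Lef1, a factor related to TCF-1, had 40.0, 30.05 and 30.7 CPM in KO and 33.0, 29.9 and 18.9 CPM in WT, and these overlapped. A peak 36.0 kb upstream of Maf, the gene of a factor that drives IL-21 and IL-4, had 28.5, 26.3 and 21.0 CPM in KO and 21.4, 29.1 and 17.5 CPM in WT, also with overlap.

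Among genes induced early by T cell receptor signals, Fos, an AP-1 subunit gene, had 3 strong intergenic peaks, the strongest 18.4 kb upstream with 61.8, 58.9 and 33.9 CPM in KO and 45.4, 38.5 and 42.2 CPM in WT. Its KO Tfh4 value was the lowest of the 6. Nr4a3, a relative of Nr4a1, had a peak 2.07 kb upstream with 55.2, 62.6 and 54.1 CPM in KO and 49.9, 55.8 and 40.8 CPM in WT. Egr3, a zinc-finger factor gene of the same response, had one 11.4 kb upstream with 38.05, 38.8 and 33.9 CPM in KO and 32.1, 31.45 and 24.8 CPM in WT, where KO stood above WT with no overlap and the limma adjusted p was 0.24. Jun had 1 peak at 27.2 ± 3.67 CPM in KO and 22.1 ± 2.36 CPM in WT and Klf6, a Krüppel-like factor gene, had 2. Prdm1, whose product Blimp-1 opposes the Tfh program, had a peak on either side, 77.9 kb downstream at 23.2 ± 5.55 CPM in KO and 22.15 ± 3.25 CPM in WT and 70.7 kb upstream at 22.1 ± 5.75 CPM in KO and 19.7 ± 6.30 CPM in WT. SDs here are over the 3 populations of a genotype.

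Cytokine and receptor genes held 11 peaks next to 9 of 37 listed genes, and 0 of 8 tested were called. Il21, the gene of the main Tfh cytokine, had a peak 27.1 kb upstream with 19.0, 18.8 and 17.8 CPM in KO and 24.05, 18.1 and 9.47 CPM in WT. The WT Tfh4 library was lowest and the WT Tfh21 library highest. Il10, an anti-inflammatory cytokine gene, had 3 peaks averaging 15.1 to 26.6 CPM, with no listed peak at its start. Ifng, the interferon-γ gene, had one 21.9 kb upstream with 41.9, 33.8 and 33.9 CPM in KO and 37.4, 31.45 and 23.3 CPM in WT, against an average of 4.20 CPM at its start site. Il6st, which encodes the shared receptor chain gp130, had the strongest of this group, 39.1 kb upstream, with 57.1, 58.9 and 56.5 CPM in KO and 47.2, 52.7 and 30.6 CPM in WT. There the KO values stood above all WT values, with a log2 difference of 0.43 ± 0.14 (SE, limma adjusted p = 0.0818). Cish and Socs1, genes of cytokine-induced inhibitors of STAT signalling, had 1 peak each, at 24.4 ± 0.866 CPM in KO and 22.9 ± 5.25 CPM in WT and 18.45 ± 2.69 CPM in KO and 14.3 ± 3.59 CPM in WT.

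Surface receptor genes held 20 peaks next to 17 of 46 listed genes. Tigit, a coinhibitory receptor gene, had 2 peaks upstream, and the stronger, 45.5 kb away, had 59.9, 53.85 and 42.8 CPM in KO and 40.1, 55.8 and 32.8 CPM in WT. Pdcd1, which encodes PD-1, had one 39.4 kb upstream at 20.9 ± 4.04 CPM in KO and 17.05 ± 4.54 CPM in WT, and Btla, another coinhibitory receptor gene, one 37.2 kb downstream at 13.9 ± 0.301 CPM in KO and 18.0 ± 5.51 CPM in WT. Cd44, an adhesion receptor gene of activated T cells, had 2 upstream at 41.8 ± 9.09 CPM in KO and 36.0 ± 2.88 CPM in WT and 34.0 ± 2.70 CPM in KO and 24.3 ± 3.61 CPM in WT. Neither Pdcd1 nor Cd44 was called for KO against WT (limma adjusted p = 0.47 for Pdcd1, 0.459 and 0.128 for Cd44).

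Migration genes held 12 peaks next to 6 of 25 listed genes, and 0 of 8 tested were called. Cxcr5, the receptor gene that brings Tfh cells into follicles, had one 6.8 kb upstream with 24.7, 26.3 and 15.3 CPM in KO and 23.2, 14.15 and 14.6 CPM in WT. Both Tfh4 libraries stood under both Tfh21 libraries there, with a log2 difference of -0.645 ± 0.28 (SE) and a limma adjusted p of 0.143. Cxcr4, the receptor gene for CXCL12, had 2 peaks near 20 kb upstream, of which the stronger had 37.1, 36.3 and 30.7 CPM in KO and 45.4, 33.8 and 23.3 CPM in WT. S1pr1, the receptor gene that lets lymphocytes leave lymphoid tissue, had 3, at 43.45 ± 7.92 CPM in KO and 39.9 ± 10.3 CPM in WT, 24.9 ± 7.49 CPM in KO and 18.55 ± 4.37 CPM in WT and 30.3 ± 7.21 CPM in KO and 27.1 ± 5.92 CPM in WT. Rgs1, a regulator of chemokine receptor signalling, had 3 as well, averaging 16.6 to 36.6 CPM.

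The list for T cell receptor signalling held 28 peaks next to 17 of 60 listed genes, with Dusp6 and Lpin1 called for KO against WT. Lpin1 is a lipid synthesis gene whose difference was known when it was listed, so its call says nothing of the list. Rasgrp1, which activates Ras downstream of the receptor, had 4 peaks 47.5 to 96.2 kb upstream. The farthest had 27.6, 26.3 and 24.2 CPM in KO and 22.3, 15.7 and 14.6 CPM in WT, with no overlap and a log2 difference of 0.57 ± 0.21 (SE, limma adjusted p = 0.129). Traf1, an adaptor gene of TNF receptors, had one 1.53 kb upstream with 74.2, 52.6 and 47.6 CPM in KO and 49.9, 53.5 and 51.7 CPM in WT, where KO Tfh21 stood apart. Mir142, the gene of a microRNA abundant in blood cells, had one 7.59 kb upstream at 54.7 ± 6.87 CPM in KO and 48.1 ± 5.10 CPM in WT. Bcl10, Malt1 and Nfkb1, genes of the route to NF-κB, had 1, 2 and 1 peaks, none called.

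Of markers of other cell types, Klrb1c, an NK cell receptor gene, had 4 strong intergenic peaks at 23.4 to 44.6 CPM, and Cr2, the gene of complement receptor CD21 of B cells, had 1 at 21.55 ± 3.65 CPM in KO and 17.8 ± 3.69 CPM in WT. All 5 had a higher mean in KO on the log2 scale in CPM, 3 of the 5 did after scaling, and 0 were called. No myeloid marker gene had a strong intergenic peak.

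**Figure D5:**
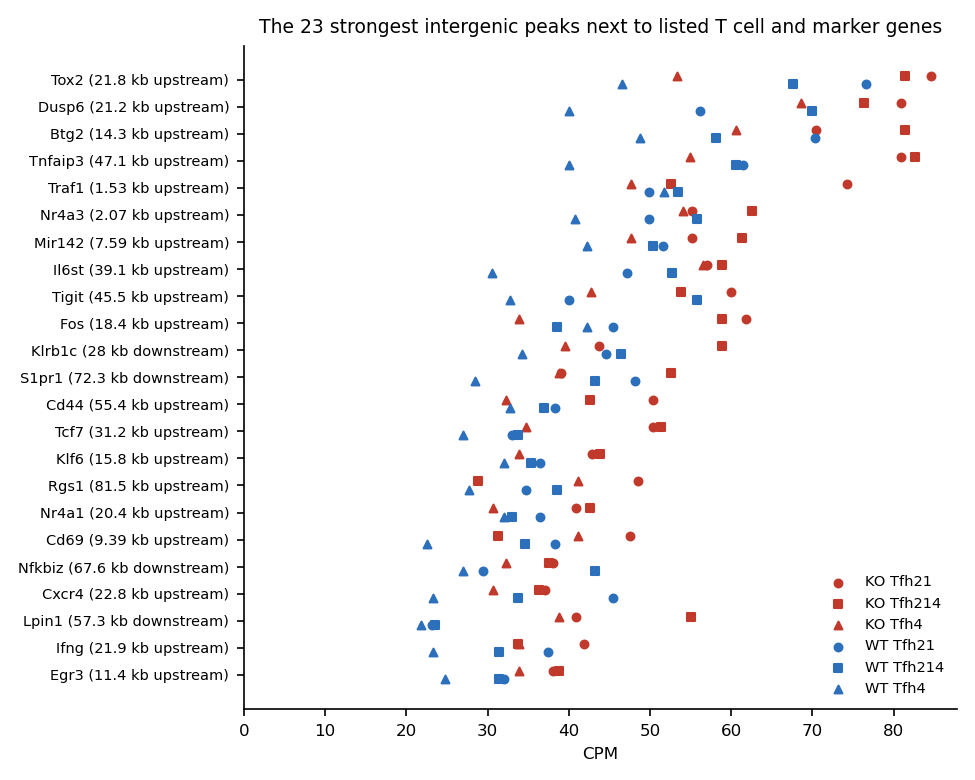
CPM (x axis) of the 23 strong intergenic peaks with the highest mean next to listed genes, 1 row a peak with its distance from the start site, KO libraries in red above WT libraries in blue and the marker giving the population. Tox2 stands at the top, with 53.3 to 84.7 CPM in KO and 46.6 to 76.6 CPM in WT, and the WT Tfh4 library is the lowest in most rows.

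Around Stat6 itself, 6 strong intergenic peaks lay within 1 Mb. None was called, and of the 3 tested, R3hdm2 had the largest difference, at 39.2 ± 5.0 CPM in KO and 30.2 ± 2.45 CPM in WT (SD over 3 populations), with a log2 difference of 0.36 and a limma adjusted p of 0.191.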

How the data were processed

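One table of peaks was analysed, with 6 libraries of 1 sample each. The authors deposited CPM, relative to each library's reads in listed peaks. The submitters' processing notes name Bowtie 1.3.0, MACS2 2.0, HOMER and mm9 but not what each did. The sources used here do not say whether peaks were called on pooled libraries, how duplicates were handled or whether cut sites were shifted. Some headers did not match their contents, so the gene section and transcript positions were taken from the fields that held them. The members, gene lists and tests were chosen with earlier results of these data known.

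Whole reads were recovered from the CPM steps, with at most 3 values a library farther than 0.02 reads from a whole number. Distances run from a peak's midpoint to the start of the nearest listed transcript on the same chromosome. Peaks averaging 20 reads or more (8986, with 1126 strong intergenic ones) entered limma 3.58.1 with a variance trend on log2(CPM + 1), with genotype and population as terms, 2 residual degrees of freedom and Benjamini-Hochberg adjustment at 0.05 over all of them. Counting intervals are exact binomial or Wilson at 95%. edgeR 4.0.16 and DESeq2 1.42.0 on recovered reads, median-of-ratios scaling, other pseudocounts and filters, and fits without each library were alternatives. Scripts ran in R 4.3.3 and Python 3.11.15 and were tested on simulated data. Named were the 10 strongest peaks, up to 12 called peaks a contrast, the 5 largest effects each way, the 3 largest ratios each way within a population, the peaks at the threshold, the 5 widest and narrowest, and those next to listed genes, from which examples are given, and some of these peaks are not reported here. The Fasl, Irf2bpl and Stat6 neighbourhoods and the RefSeq comparison were added after values were seen.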

Additional observations from a re-analysis of the deposited data

Results flagged for a closer look

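After median-of-ratios scaling, KO and WT libraries differed in unlike directions between populations at strong intergenic peaks. The median log2 ratio of KO to WT over the peaks whose higher library had 20 reads or more was 0.066 in Tfh21 (1335 peaks), -0.089 in Tfh214 (1293) and 0.134 in Tfh4 (1312). KO was higher at 815, 599 and 888 of all 1419 peaks in that order. Over all listed peaks with that minimum the medians were 0.014, -0.02 and 0.006. Each value rests on 1 library a genotype, and whether populations differed was not tested. KO Tfh214 was also the shallowest library, with 798555 reads in peaks, and WT Tfh4 the deepest, with 1373218, and the part of depth in these medians was not tested.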

How the results depend on the processing

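Called strong intergenic peaks in the order KO against WT, Tfh4 against Tfh21 and Tfh4 against Tfh214 numbered 8, 20 and 25, and 1, 0 and 0 with median-of-ratios scaling, 3, 2 and 0 without a filter on low values, 5, 14 and 16 at a mean of at least 10 reads, and 0, 0 and 0 without the variance trend, with edgeR and with DESeq2. Without the population term KO against WT gave 1. Leaving out each library in turn gave 0 to 65, 0 to 89 and 0 to 52, and 0 to 2 for Tfh214 against Tfh21 (2 without WT Tfh214). KO against WT fell to 0 without KO Tfh21 or WT Tfh21 and reached 65 without KO Tfh214 and 59 without WT Tfh214, and 3 without either Tfh4 library. An additive fit without 1 library reads genotype from the 2 complete populations with 1 residual degree of freedom. Counts at least 2-fold higher and lower in KO were 29 and 0 in Tfh21, 7 and 6 in Tfh214 and 41 and 2 in Tfh4. They were 3 and 0, 2 and 19, and 13 and 9 with scaling, and 6 and 0, 1 and 1, and 8 and 0 with a pseudocount of 5. The cause of these changes was not tested, beyond the fewer samples or other genes each alternative holds. Shares of all tested peaks called under the alternatives are not reported here, so the counts of calls are not set against a background. Lpin1 stayed called with scaling, and was not called without the variance trend, with edgeR (log2 0.77) or DESeq2 (0.77), or without KO Tfh21 or WT Tfh21. A threshold of 10 or 20 CPM chose 2230 or 923 peaks in place of 1419. Intervals of the KO to WT ratio above and below 1 in a single population numbered 228 and 9, and 68 and 41 with scaling, an alternative chosen after seeing the data. The called peaks kept their direction, in the comparison that called them, under every alternative run. Other peaks did not: for KO against WT, scaling turned the direction of 325 of 1126 tested strong intergenic peaks. KO and WT were matched within populations by the population term, and the labels carry no replicate numbers for a further pairing. A median of 26.2 reads a peak limits what single libraries can show.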
